A study of Mus musculus with 47 samples.

Results

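The 3 tumours titled Ikaros Plastic were compared with 11 tumours of 4 other backgrounds, among 47 mouse T-cell lymphoblastic tumours profiled on Affymetrix arrays. The 11 comprise 3 ThPOK transgenic, 3 LMO1 transgenic, 3 Nup98HoxD13 transgenic and 2 Pokemon transgenic tumours, and all 14 tumours carry the label TLX1 negative. The members were chosen by their titles, and the 4 comparison backgrounds were brought together because they share a low signal of *AI506816*. The labels call the cells T-cell lymphoblasts and give no age, sex, strain, dose of the allele, promoter of a transgene, or statement that tumours came from separate mice. Every p-value therefore measures only the spread between these samples. A difference between bulk samples cannot tell fewer cells of a type from less RNA per cell.

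Ikaros, encoded by *Ikzf1*, is a zinc finger protein that binds DNA and acts with chromatin remodelling complexes in lymphocyte precursors. Plastic is a chemically induced point mutation in its DNA-binding zinc fingers. In mice, loss of Ikaros function leads to T-cell leukaemia and lymphoma, often with activated Notch signalling. ThPOK (*Zbtb7b*) directs thymocytes to the CD4 lineage, LMO1 is a nuclear adaptor that interferes with E proteins, Nup98HoxD13 is a leukaemic fusion of a nucleoporin and a homeodomain protein, and Pokemon (*Zbtb7a*) is a transcriptional repressor related to ThPOK.

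Values are MAS5 signals, an arbitrary linear unit of hybridization intensity. Differences are on the scale log2(signal + 15.9), Ikaros Plastic minus the unweighted mean of the 4 backgrounds, ± SE, with limma and Benjamini-Hochberg adjustment over 8810 tested genes. The threshold for a call was an adjusted p of 0.05. A gene held when it was called in the same direction with all 3 Ikaros tumours and with tumours 1 and 3 alone, which is a filter and not a second test, since both fits share samples. Unless said otherwise, a printed difference is that of tumours 1 and 3.

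Properties of the arrays separated the groups before any gene was considered. The median signal was 94.6, 106 and 96.4 on the arrays of Ikaros tumours 1, 2 and 3, and 60.2 to 76.3 on the other 11 (mean 99.1 against 70.0 ± 4.37 SD; exact permutation test, two-sided, p = 0.00275, the smallest this design allows). Among the 33 tumours of the 9 remaining backgrounds, 1 reached the lowest Ikaros value. Tested genes were split by mean signal into 5 equal bins. In the dimmest bin the median difference was 0.44, and in the brightest it was −0.17; after quantile normalization these became 0.06 and −0.03. The part of array brightness in a single difference was not tested. For named genes the value after quantile normalization is therefore given where it changes the call of tumours 1 and 3 against the 11. Differences of genes from single backgrounds are given only without that step. The 3'/5' signal ratios of control probe sets gave exact permutation p = 0.288 for *Gapdh* and 0.157 for *Actb*.

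Tumour 2 stood apart from tumours 1 and 3. Log2 values of tumours 1 and 3 correlated at 0.942 across genes, and tumour 2 correlated with them at 0.776 and 0.795. Tumours 1 and 3 reached 0.882 to 0.914 with the 11 tumours, tumour 2 only 0.705 to 0.749, and the 11 reached 0.874 to 0.964 among themselves.

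**Figure D1:**
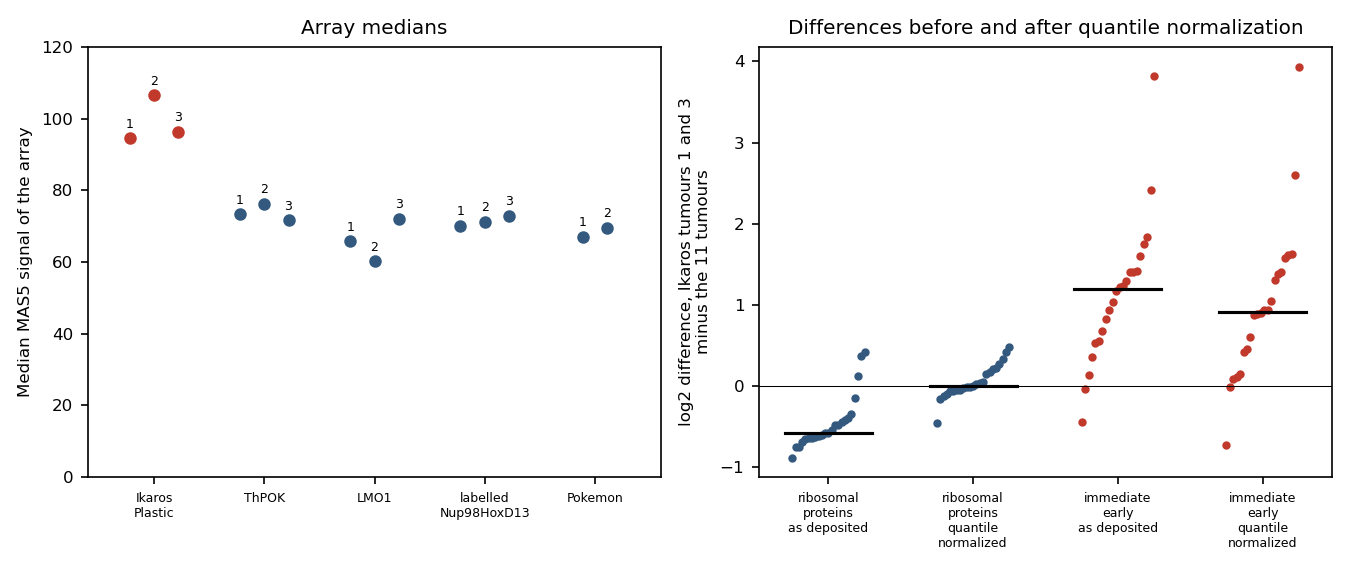
Left, the median MAS5 signal of each array (linear axis) by background; right, the log2 difference of each tested gene of 2 lists (points) with its list median (bar), before and after quantile normalization. The 3 Ikaros arrays lie above all 11 others, and the ribosomal protein median moves from −0.57 to 0.01 while the immediate early median moves from 1.19 to 0.91.

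The genes that define the backgrounds were read in every tumour. *Ikzf1* gave 783, 351 and 770 in Ikaros tumours 1 to 3 and 93.6 to 689 in the 11, and tumours 1 and 3 lay above all 44 other tumours of the series. Its difference of 1.29 ± 0.60 was not called (adjusted p = 0.218), and a point mutation need not change the level of the transcript, so this probe set does not check the label. *Zbtb7a* read 884 and 862 in the Pokemon tumours and 14 to 59.1 in the other 12. *Lmo1* read 522 to 2344 in LMO1 tumours, but also 586 to 2526 in the tumours labelled Nup98HoxD13, and 19.6 to 24.6 in Ikaros tumours. The *Lmo1* signal therefore does not tell the tumours labelled Nup98HoxD13 from LMO1 tumours, and whether their label is right was not settled. Each result set against them is thus against "tumours labelled Nup98HoxD13". *Lmo1* also varied among ThPOK tumours (mean log2 value 5.95, SD 1.49, against a mean of 10.4 in LMO1 tumours). *Zbtb7b* read 35.6 to 50.6 in ThPOK tumours, within the 7.13 to 93.6 of the other 8, and 55.1, 357 and 72.5 in Ikaros tumours. The label of the ThPOK tumours is therefore not checked by this probe set. *Nup98* read 155, 120 and 241 in the tumours labelled Nup98HoxD13, against 78.9 to 187 in the other 11.

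T lineage markers were detected in the 3 Ikaros tumours, several of them lowest in tumour 2. *Cd3e*, a chain of the T-cell receptor complex, read 2675, 1964 and 2419.8 against 1436 to 2478 in the 11. *Cd3g*, another chain, read 2616, 1261 and 2401 against 1394 to 3088. The adhesion receptor *Cd2* read 794, 134 and 804 against 572 to 2186, and the surface glycoprotein *Thy1* read 3412, 1903 and 3377 against 3134 to 8385. *Ptprc*, the pan-leukocyte phosphatase CD45, read 3934, 2476 and 3557 against 2884 to 7528. Tumour 2 was thus below all 11 for *Cd3g*, *Cd2*, *Thy1* and *Ptprc*, and tumours 1 and 3 lay within the range for each of them. *AI506816* read 3.17, 27.7 and 33 in Ikaros tumours and 1.07 to 20.1 in the 11, with up to 1117 elsewhere in the series.

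With all 3 Ikaros tumours, 1615 genes were called (18.3%; 1041 higher, 11.8%, and 574 lower, 6.52%). With tumours 1 and 3 alone 402 were (4.56%; 3.11% higher and 1.45% lower). The genes that held number 363 (4.12% of those tested): 256 higher (2.91%) and 107 lower (1.21%). After quantile normalization 116 held higher and 86 lower, of which 109 and 49 were held in the same direction before it, so the share of higher genes went from 70.5% to 57.4%. Of the 107 lower genes, 77 lie in the brightest of the 5 bins. Both Ikaros tumours lay above all 11 tumours for 206 of the 256 higher genes (2.34% of tested genes; 806 of all tested genes, 9.15%, do so whether they held or not). All 3 lay above for 144 of the 256, where 5.54% of tested genes do. Tumours 1 and 3 lay below all 11 for 69 of the 107 lower genes (0.783% of tested genes; 3.79% do so whether they held or not), and all 3 did for 55, where 2.77% of tested genes do. Where a gene had another probe set, it pointed the other way for 9 of 78 higher and 24 of 65 lower genes.

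**Figure D2:**
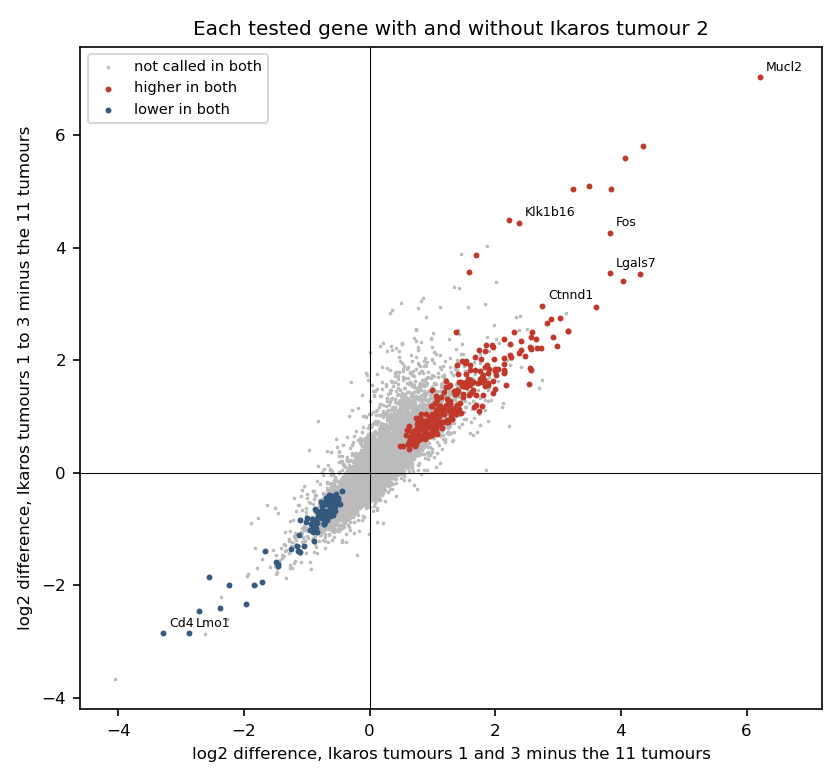
Each point is 1 of the 8810 tested genes, with its log2 difference from the 11 tumours for Ikaros tumours 1 and 3 (x) and for all 3 tumours (y). Red marks the 256 genes higher in both fits and blue the 107 lower in both, and *Klk1b16* lies well above the diagonal, with a signal of 8114 in tumour 2.

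*Fos*, a subunit of the AP-1 transcription factor induced within minutes of growth factor or stress signals, read 1347, 3106 and 1087 in Ikaros tumours 1 to 3 and 35.2 to 153 in the 11 (median 70.6). All 44 other tumours of the series were lower, the highest at 315. The difference was 3.82 ± 0.51 (adjusted p = 2.79e-05), and against the single backgrounds it ran from 3.63 (LMO1) to 4.11 (Pokemon), held against each.

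*Lgals7*, which encodes galectin-7, a sugar-binding protein of stratified epithelia, read 310, 193 and 393 against 2.32 to 26.6, a difference of 3.82 ± 0.34 (adjusted p = 2.42e-09). The highest value in the remaining 33 tumours was 51.9. Genes were tested when above the array median in at least 2 arrays. None of the 11 arrays met this for *Lgals7* (medians 60.2 to 76.3). It was thus tested largely through the Ikaros arrays, and its p-value does not allow for that selection. Of keratins of the same epithelia, *Krt5* read 39.7, 147 and 406 (21.4 to 179 in the 11) and *Krt14* read 19.0, 145 and 197 (1.14 to 98.1). Tumour 1 lay within the range of the 11 for both keratins, and tumour 3 was highest for the keratins as for *Lgals7*. The part of epithelial cells in the *Lgals7* signal was not tested.

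*Rab34*, a small GTPase of the Golgi and the primary cilium, read 688, 289 and 418 against 28.2 to 79.4 (3.03 ± 0.41, adjusted p = 2.79e-05). Its second probe set gave 446, 243 and 248 against 19.8 to 62.3. The highest *Rab34* value among the 33 tumours of the other backgrounds was 691, above all 3 Ikaros tumours. *Max*, the obligate partner of MYC in DNA binding, read 265, 268 and 518 against 30.7 to 66.0 (2.57 ± 0.36, adjusted p = 5.42e-05). Outside the 14 tumours *Max* was not low: 7 of the 33 others lay above tumour 1, and the difference from the other 9 backgrounds was 1.09 ± 0.35 (adjusted p = 0.0465). *Myc* itself read 1242, 599 and 1756 in Ikaros tumours and 639 to 1538 in the 11, and its difference of 0.45 ± 0.37 was not called (adjusted p = 0.533).

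*Ctnnd1* and *Yap1* were chosen for description after their values were seen. *Ctnnd1*, p120-catenin, which binds the cytoplasmic tail of cadherins, read 300, 552 and 367 against 23.7 to 45.1 (2.74 ± 0.47, adjusted p = 0.000795). The highest *Ctnnd1* value elsewhere in the series was 362, above Ikaros tumour 1. *Yap1*, the transcriptional coactivator held in check by the Hippo kinases, read 615, 456 and 648 against 35.6 to 211 (2.82 ± 0.56, adjusted p = 0.00317). Also chosen after their values were seen, *Ppic* (cyclophilin C; 643, 428 and 550 against 41.0 to 113), *Mmp14* (a membrane-bound matrix protease; 775, 511 and 1014 against 73.2 to 211) and *Dock1* (an activator of the GTPase RAC; 296, 323 and 268 against 24.2 to 87.2) held without overlap. Elsewhere in the series the highest *Ppic* value was 1295, above all 3 Ikaros tumours. *Cebpa*, a myeloid transcription factor also chosen after its values were seen, read 467, 274 and 227 against 66.3 to 107 (1.79 ± 0.38, adjusted p = 0.00535). It was highest in tumour 1, as was the sum of adipocyte markers (15479, 1908 and 3326), and its call ended when tumour 1 was left out. The part of fat cells in the *Cebpa* signal was not tested.

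**Figure D3:**
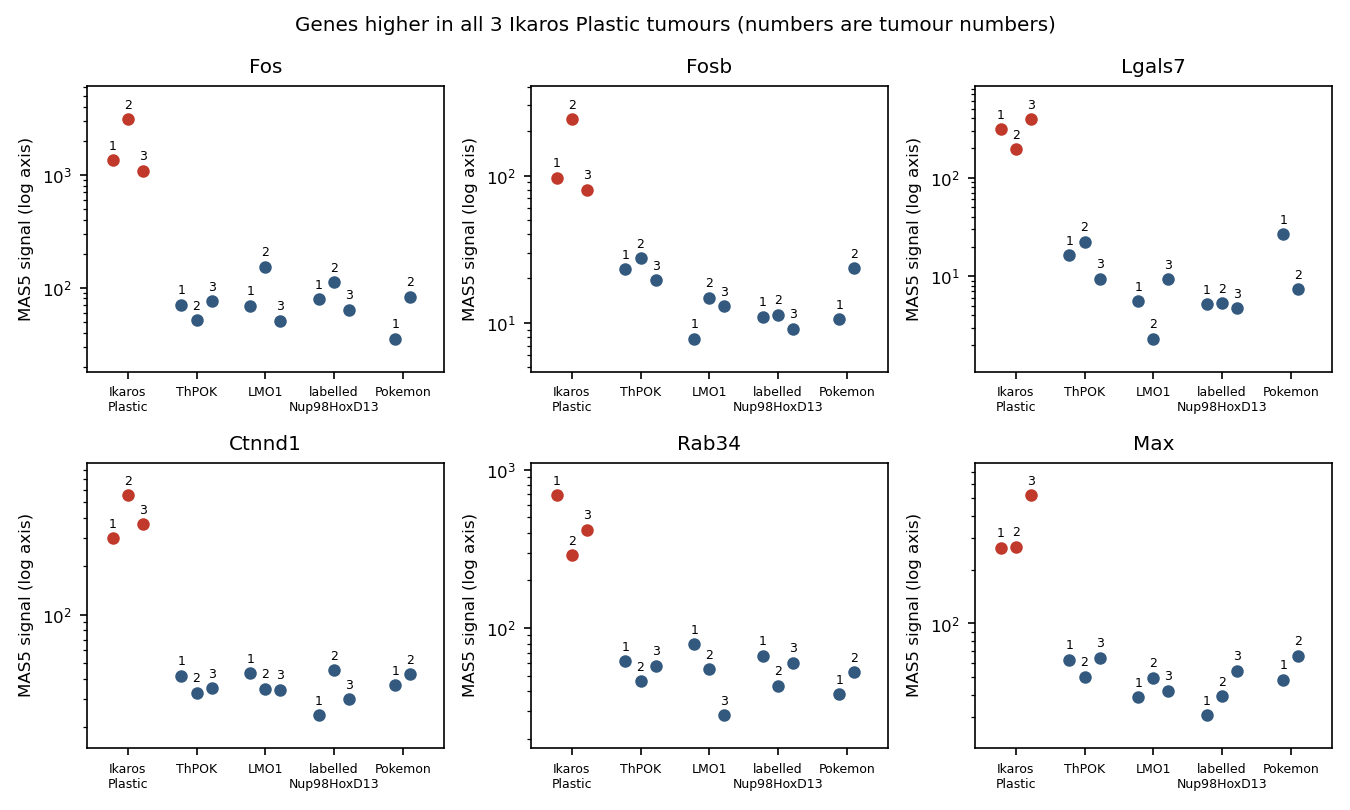
MAS5 signal (log axis) of 6 genes in each of the 14 tumours, by background, with the tumour number above each point. The 3 Ikaros Plastic tumours (red) lie above all 11 others (blue) for every gene shown, from *Fos* at 1087 or more against 153 or less to *Fosb* at 80.0 or more against 27.4 or less.

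*Lmcd1*, *Pdgfrb* and *Rec8* were high in Ikaros tumours 1 and 3 and lower in tumour 2. *Lmcd1*, a LIM domain cofactor, read 1241, 201 and 900, with 473 in Pokemon tumour 2 and 2.12 to 107 in the other 10 (4.31 ± 0.66, adjusted p = 0.000158; not held against Pokemon alone, 2.67 ± 0.86, adjusted p = 0.0741). *Pdgfrb*, a growth factor receptor of pericytes and fibroblasts, read 1854, 410 and 1365 against 52.0 to 474 (3.60 ± 0.65, adjusted p = 0.00141). The highest *Pdgfrb* value elsewhere in the series was 1646. Of 22 tested fibroblast and matrix markers, *Pdgfrb* and *Col5a1*, a fibrillar collagen chain, held, where 2.91% of all genes held higher. *Col5a1* read 197, 172 and 194 against 36.4 to 135 (1.29 ± 0.35, adjusted p = 0.0294; 1.01 and 0.125 after quantile normalization), and its other 2 probe sets also lay above all 11 in all 3 tumours. *Col1a1* read 586, 971 and 245 against 75.8 to 562, above all 11 in tumours 1 and 2, and was not called (adjusted p = 0.754). The receptor *Pdgfra* read 50.8, 246 and 71.7 against 28.3 to 92.6 (adjusted p = 0.952). The summed signal of the list was 14981, 16432 and 11146 against 7916 to 17882, and its part in these differences was not tested. *Rec8*, a meiotic cohesin subunit, read 85.1, 37.2 and 375 against 1.54 to 47.6 (3.15 ± 0.65, adjusted p = 0.00375).

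Immediate early genes, the transient first transcripts after a stimulus, were high as a list. Of 22 tested, 12 were called higher with all 3 tumours, where 11.8% of all genes were, and 4 held (*Fos*, *Fosb*, *Jun* and *Zfp36*), where 2.91% of all genes did. The list median was 1.19 against 0.13 for all tested genes, and 0.91 against −0.02 after quantile normalization, which left all 4 called. *Fosb*, a second AP-1 subunit, read 96.8, 242 and 80.0 against 7.78 to 27.4 (1.75 ± 0.27, adjusted p = 0.000158). *Jun*, the usual partner of FOS, read 289, 559 and 260, and 1 tumour labelled Nup98HoxD13 reached 281 (1.83 ± 0.41, adjusted p = 0.00706). *Zfp36*, which destabilizes mRNAs with AU-rich elements, read 665, 1180 and 782, and LMO1 tumour 1 reached 677 (1.60 ± 0.42, adjusted p = 0.0243).

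The list did not move evenly. *Egr1* read 780, 1621 and 1660.5 but 84.6 to 1295 in the 11 (1.41 ± 0.76, adjusted p = 0.307), and *Nr4a1* read 516, 871 and 801 against 60.5 to 733 (0.94 ± 0.64, adjusted p = 0.445). *Btg2* overlapped throughout (816, 1164 and 1490.5 against 726 to 1693). *Ier2* (1.41 ± 0.47, adjusted p = 0.0781) and *Dusp1* (1.41 ± 0.51, adjusted p = 0.109) lay above all 11 in all 3 Ikaros tumours without a call. *Spry2*, a feedback inhibitor of receptor tyrosine kinase signalling, held, at 155, 316 and 155 against 19.6 to 44.2 (1.95 ± 0.46, adjusted p = 0.00965).

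The largest difference of all belonged to secreted gland products, whose level differed widely between the 3 tumours. *Mucl2*, a mucin-like secreted protein, read 1018, 9359.9 and 2725 in Ikaros tumours and 0.425 to 20.5 in the 11 (6.21 ± 1.17, adjusted p = 0.00187). *Scgb2b27* and *Scgb1b27*, secretoglobins of salivary and lacrimal glands, differed by 4.35 ± 1.07 and 3.85 ± 0.89 (adjusted p = 0.0153 and 0.00949), *Prol1* by 4.06 ± 1.04 (0.02) and *Crisp3* by 3.49 ± 0.67 (0.00213). The order was the same in each of these 5 genes: tumour 2 highest, then 3, then 1, then the 11 tumours. *Mucl2*, *Scgb2b27*, *Prol1* and *Crisp3* lay below the array median in all 11. The promoters of *Mucl2* and of *Fos* and *Lgals7* are shown as the 250 bases before the start of the gene (RefSeq, GRCm38.p6, mouse), with a match to the Ikaros core motif in capitals.
*Mucl2*, chr15:103899313-103899562, minus strand: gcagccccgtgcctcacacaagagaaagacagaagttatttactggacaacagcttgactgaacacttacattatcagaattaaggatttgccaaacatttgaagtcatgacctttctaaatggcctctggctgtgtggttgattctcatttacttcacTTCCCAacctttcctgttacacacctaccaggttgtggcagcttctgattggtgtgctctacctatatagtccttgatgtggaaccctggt
*Fos*, chr12:85473640-85473889, plus strand: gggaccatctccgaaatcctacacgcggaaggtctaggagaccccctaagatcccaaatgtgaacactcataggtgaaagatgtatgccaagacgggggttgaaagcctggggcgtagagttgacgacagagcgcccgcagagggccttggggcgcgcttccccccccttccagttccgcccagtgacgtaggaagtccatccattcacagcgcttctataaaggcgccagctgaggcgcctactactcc
*Lgals7*, chr7:28864136-28864385, plus strand: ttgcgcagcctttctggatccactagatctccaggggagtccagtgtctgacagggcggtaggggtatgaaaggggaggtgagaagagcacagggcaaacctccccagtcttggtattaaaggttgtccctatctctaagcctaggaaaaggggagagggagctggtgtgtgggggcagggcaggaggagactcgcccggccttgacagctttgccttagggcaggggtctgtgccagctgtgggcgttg

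The motif TGGGAA, searched on both strands, has 1 match in the *Mucl2* window, on the strand opposite to the one printed, and 0 in the *Fos* and *Lgals7* windows. It is present in 21.6% of 32851 RefSeq promoters, in 20.4% of those of tested genes, in 24.1% of 266 promoters of genes that held higher and in 12.6% of 103 promoters of genes that held lower. The AP-1 motif TGANTCA has a match in 0 of the 3 windows, in 6.75% of all promoters, in 4.89% of those of tested genes and also in 4.89% of those of genes that held higher. These are descriptions of letters in a window, and promoters of 206 higher and 82 lower genes were matched by symbol.

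Marker genes of other cell types were summed per tumour. The 17 tested salivary and lacrimal markers summed to 1181, 81402 and 3471 in Ikaros tumours 1 to 3 and to 214 to 633 in the 11. With all 3 tumours 13 of the 17 were called higher (11.8% of all genes were), and 5 held (2.91% of all genes did): *Prol1*, *Scgb1b27*, *Klk1b16*, *Egf* and *Smr2*; after quantile normalization 3 of them did, without *Egf* (1.18, adjusted p = 0.154) and *Smr2* (0.58, adjusted p = 0.152). *Bpifa2* (22.8, 7800 and 30.1 against 1.77 to 39.4) and *Klk1b27* (9.98, 6845 and 35.5 against 0.721 to 326) were high in tumour 2 and within the range of the 11 in tumours 1 and 3. Epithelial markers summed to 1518, 13249 and 3212 against 1002 to 2016, with *Epcam* at 9.59, 1747 and 250 and *Krt18* at 72.1, 2862 and 290. Tumour 1 was therefore within the range of the 11 for the epithelial sum and above it for the gland sum.

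Gland genes were also high in *Cdkn2a* knockout tumours 8 and 1, outside the comparison. In these tumours *Fos*, *Lgals7*, *Rab34*, *Max* and *Ctnnd1* lay below all 3 Ikaros tumours. The part of gland tissue in the signals of these genes was not tested. *Cdkn2a* knockout tumour 8 had a gland sum of 39715 and *Cdkn2a* knockout tumour 1 a sum of 1230, close to that of Ikaros tumour 1. In tumours 8 and 1, in that order, *Fos* read 54.8 and 102, *Lgals7* 12.7 and 5.30, *Rab34* 61.0 and 64.6, and *Ctnnd1* 89.6 and 42.6. *Max* read 188 and 193 there, and *Spry2* read 237 in tumour 8.

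**Figure D4:**
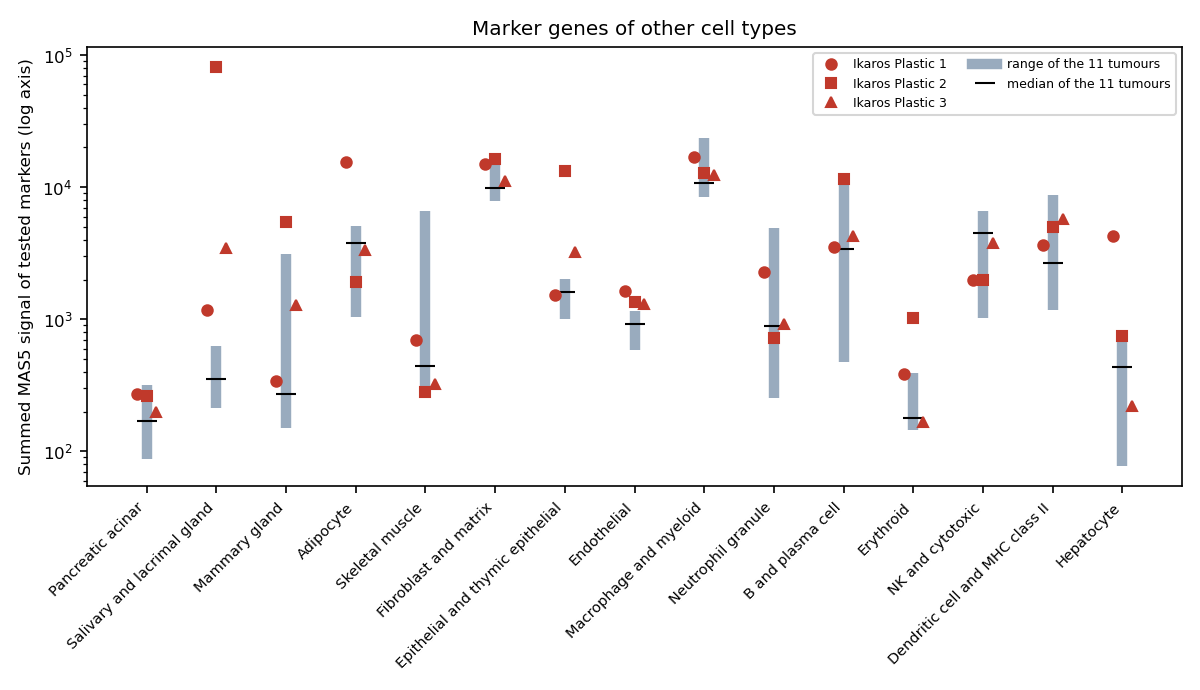
Summed MAS5 signal (log axis) of the tested markers of 15 cell types in Ikaros tumours 1 (circle), 2 (square) and 3 (triangle), with the range (bar) and median (line) of the 11 comparison tumours. Tumour 2 leads for salivary and epithelial markers (81402 and 13249), and tumour 1 leads for adipocyte markers (15479 against 1038 to 5072).

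Other marker sums placed single tumours apart. Adipocyte markers summed to 15479, 1908 and 3326 against 1038 to 5072. Of 11, 3 held, where 2.91% of all genes held higher: *Scd1* (a fatty acid desaturase; 2962, 693 and 611 against 98.0 to 681), *Dgat2* (triglyceride synthesis; 228, 118 and 129 against 39.2 to 111) and *Thrsp* (385, 37.6 and 67.2 against 19.5 to 59.4). All 3 calls ended when tumour 1 was left out (adjusted p = 0.527, 0.285 and 0.663 with tumour 3 alone). *Adipoq*, a defining fat cell product, read 1600, 34.9 and 67.3 against 16.9 to 413. Endothelial markers summed to 1641, 1343 and 1295 against 590 to 1152, and *Vwf* held (1.64 ± 0.47, adjusted p = 0.038), though not after quantile normalization (0.153). Macrophage, neutrophil, dendritic and NK cell sums of all 3 Ikaros tumours fell within the range of the 11.

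Among T-cell genes, the coreceptor *Cd4* differed most. It read 31.3, 122 and 48.5 in Ikaros tumours, 52.2 in ThPOK tumour 1 and 366 to 1255 in the other 10, a difference of −3.29 ± 0.74 (adjusted p = 0.00706). Its second probe set read 5.55, 12.5 and 6.22 against 4.49 to 438. The difference held against LMO1 tumours (−3.42, adjusted p = 0.0267) and tumours labelled Nup98HoxD13 (−3.92, 0.0106) but not against ThPOK (−2.67, 0.0658) or Pokemon tumours (−3.14, 0.0621). *Cd8a* read 346, 190 and 1412 against 23.1 to 2940 (0.11 ± 1.03, adjusted p = 0.97), with 23.1 to 47.5 in ThPOK tumours; *Cd8b1* read 386, 239 and 1071 against 179 to 2240 (−0.56 ± 0.95, adjusted p = 0.798). Of 15 tested genes of double positive thymocytes *Cd4* alone held, a share near the 4.12% of all genes. The list median was −0.33, against 0.13 for all tested genes.

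Notch signalling, in which a cleaved receptor joins RBPJ to switch on genes such as *Hes1* and *Dtx1*, gave no calls with tumours 1 and 3. Of 25 tested pathway genes 0 held, where 4.12% of all genes did, and 2 were called higher with all 3 tumours. *Notch1* read 2011, 792 and 2426 against 939 to 4069 (−0.08 ± 0.83, adjusted p = 0.973), and *Notch3* 1174, 551 and 1349 against 336 to 1761 (0.86 ± 0.71, adjusted p = 0.541). *Dtx1* read 3139, 1211 and 3120 against 468 to 4405 (0.57 ± 1.20, adjusted p = 0.837). *Hes1* read 492, 613 and 533, with 507 in LMO1 tumour 1 and 193 to 355 in the other 10 (0.82 ± 0.57, adjusted p = 0.453). A missed threshold with SEs of this size does not show equal levels. *Il2ra* (1613, 287 and 354 against 2.82 to 2409), *Ptcra* (251, 77.5 and 445 against 85.1 to 1818) and *Kit* (28.4, 141 and 23.4 against 11.8 to 228), genes of early thymocytes, were not called (adjusted p = 0.653, 0.72 and 0.756). *Rag1* (1030, 685 and 1340 against 168 to 4887; −0.59 ± 1.18), *Rag2* (67.0, 36.1 and 176 against 4.68 to 613; 0.22 ± 0.86) and *Dntt* (1338, 1165 and 3164 against 564 to 4224; −0.28 ± 1.10), which act in receptor gene rearrangement, were not called.

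**Figure D5:**
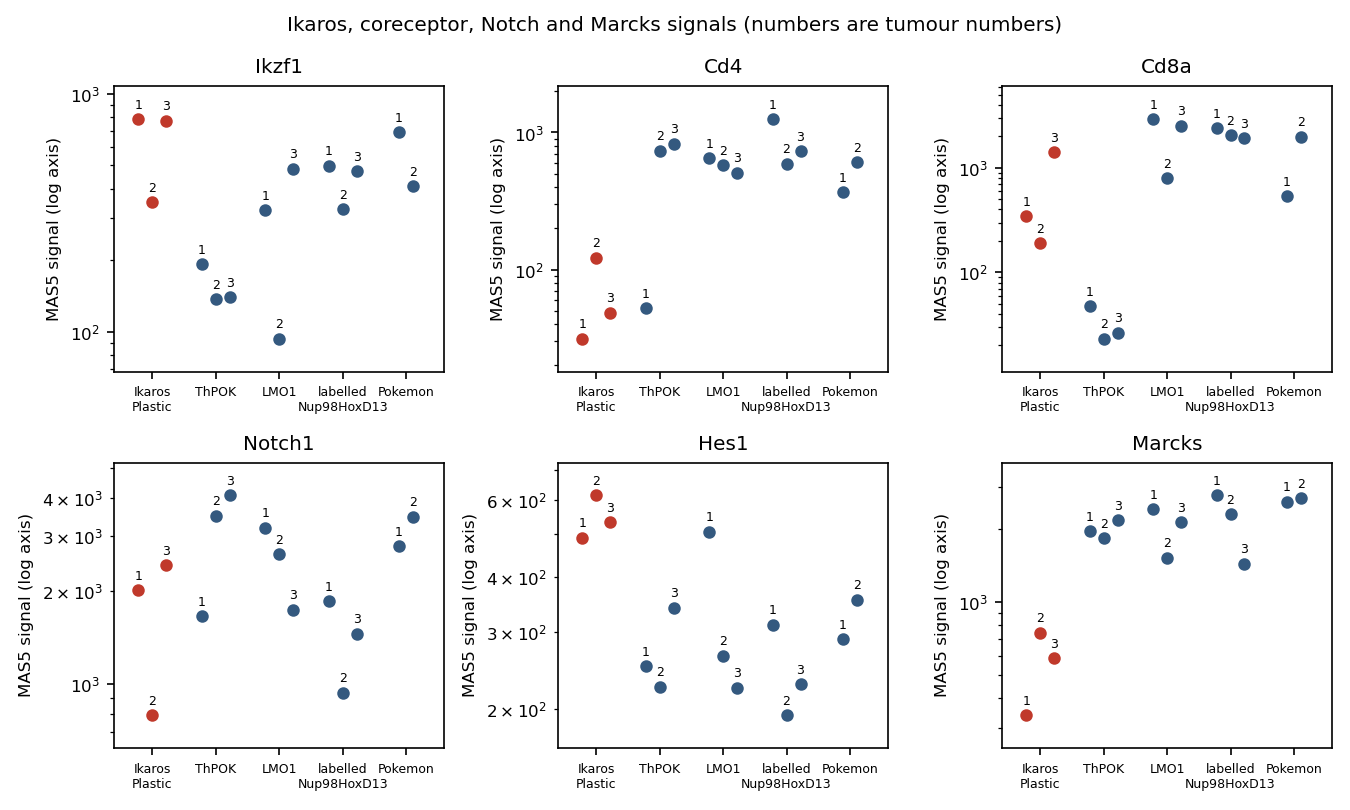
MAS5 signal (log axis) of *Ikzf1*, *Cd4*, *Cd8a*, *Notch1*, *Hes1* and *Marcks* in each of the 14 tumours, by background, with the tumour number above each point. *Ikzf1* is highest in Ikaros tumours 1 and 3 (783 and 770) and *Cd4* lowest (31.3 and 48.5), while *Notch1* overlaps.

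Of 20 tested genes of the Ikaros family and its chromatin partners, 1 was called higher and 3 lower with all 3 tumours, where 11.8% and 6.52% of all genes were. *Ikzf2* alone held, a share near the 4.12% of all genes. *Ikzf2*, which encodes Helios, read 48.0, 46.5 and 115, with 48.8 in Pokemon tumour 2 and 0.690 to 35.8 in the other 10 (1.62 ± 0.46, adjusted p = 0.0358). The call ended after quantile normalization (1.21, adjusted p = 0.131). *Chd4* (552, 474 and 721 against 485 to 883) and *Hdac1* (1106, 934 and 1282 against 1258 to 2367), core subunits of the NuRD remodelling complex, were not called with tumours 1 and 3 (adjusted p = 0.926 and 0.421). *Ikzf3* passed no filter and was not judged.

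Of 16 genes of mature single positive cells and thymic exit 0 held, and of 23 genes of the BCL2 family and apoptosis 1 did, where 4.12% of all genes held. *Klf2*, which drives egress receptors, read 964, 418 and 1669 against 88.0 to 720 (2.41 ± 0.81, adjusted p = 0.0801). *Pmaip1*, which encodes the pro-apoptotic protein NOXA, was that gene, at 409, 126 and 278 against 8.67 to 164 (2.66 ± 0.54, adjusted p = 0.00328), with 88.0 the highest value elsewhere. Of 15 glycolysis genes 3 were called higher with all 3 tumours, where 11.8% of all genes were. Of the 15, *Hk2* alone held, where 2.91% of all genes held higher. After quantile normalization 3 held, where 116 of the 8810 tested genes held higher. *Aldoa* (1.23, adjusted p = 0.00918) and *Pgk1* (0.58, adjusted p = 0.02) then stood beside *Hk2*. *Hk2*, a hexokinase, read 492, 511 and 582 against 114 to 320 (1.25 ± 0.33, adjusted p = 0.0245), above all 44 other tumours. Of 42 cell cycle genes 0 held (2.91% of all genes held higher and 1.21% lower). With all 3 tumours 8 of them were called lower, where 6.52% of all genes were, and 1 higher, where 11.8% were. Their median with tumours 1 and 3 was −0.16, against 0.13 for all tested genes. After quantile normalization it was −0.04 against −0.02.

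The remaining genes with low signals in Ikaros tumours have varied roles. *Eif4e3*, a cap-binding protein, read 154, 61.3 and 148 against 318 to 1046 (−1.96 ± 0.44, adjusted p = 0.00706). *Ift27*, a small GTPase of intraflagellar transport, read 115, 88.1 and 140 against 288 to 1204 (−1.85 ± 0.34, adjusted p = 0.0016), and its other 2 probe sets were also below the range of the 11 in all 3 tumours. *Sub1*, a transcriptional coactivator, read 1632, 1237 and 1725 against 2403 to 4842 (−1.15 ± 0.17, adjusted p = 8.81e-05). *Colq* (−1.72), *Insl6* (−1.67), *Smim27* (−1.46) and *3110009E18Rik* (−1.25) held after quantile normalization as well, and *Lgals1*, galectin-1, held only before it (−1.46, adjusted p = 0.0253, then −1.20 and 0.0729).

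*Marcks*, an actin-binding substrate of protein kinase C, read 339, 745 and 585 against 1437 to 2758 (−2.24 ± 0.68, adjusted p = 0.0477). Of its 5 other probe sets, 4 gave differences of −2.14 to −2.49 and 1 gave 0.08. The call ended after quantile normalization (−2.34, adjusted p = 0.0557). *Cyp39a1*, an oxysterol hydroxylase, read 16.2 and 14.7 in tumours 1 and 3 but 119 in tumour 2, against 39.0 to 523 (−2.56 ± 0.72, adjusted p = 0.0346). *Morc1*, a germ cell gene, read 7.68, 8.21 and 10.1 against 30.8 to 724 (−2.38 ± 0.70, adjusted p = 0.0409; 0.054 after quantile normalization).

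Cytosolic ribosomal proteins were low as a list before quantile normalization and not after it. Of 23 tested cytosolic ribosomal proteins 8 held lower, where 1.21% of all genes did, with a list median of −0.57; after quantile normalization 0 held, and the median was 0.01. *Rpl13a* read 5099.7, 6136 and 4928 against 4282 to 12101 (−0.75 ± 0.16, adjusted p = 0.00535), and −0.13 (adjusted p = 0.349) after it. *Rpl22* read 2836, 1547 and 3286 against 3253 to 7814 (−0.88 ± 0.20, adjusted p = 0.00714), and −0.45 (adjusted p = 0.111) after it. Its second probe set had the opposite sign (0.49).

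Differences from the single backgrounds share the Ikaros tumours. Against ThPOK tumours 376 genes held (4.27% of those tested; 2.3% higher and 1.96% lower) and against LMO1 231 (2.62%; 1.95% and 0.67%). Against tumours labelled Nup98HoxD13 237 held (2.69%; 2.16% and 0.533%) and against Pokemon 242 (2.75%; 1.77% and 0.976%). Of the 256 higher genes 25 held against each of the 4 backgrounds, and of the 107 lower genes 3 did. Against none of the 4 held 33 of the higher and 6 of the lower genes. The share of all tested genes that held against all 4 was not counted, so these counts cannot be set against it. *Usp18*, an interferon-induced protease, was lower than in ThPOK tumours (36.1, 127 and 92.2 against 136, 1459.7 and 1294; −3.15 ± 0.79, adjusted p = 0.0142) and did not hold against the other 3 backgrounds. *Lmo1* was lower than in LMO1 tumours (−5.14 ± 0.79, adjusted p = 0.000594) and tumours labelled Nup98HoxD13 (−5.30 ± 0.79, adjusted p = 0.000213). *Acta1*, skeletal muscle actin, was lower than in LMO1 tumours (14, 22.6 and 16.1 against 457, 451 and 1495; adjusted p = 0.0206). *Atp8a2*, a phospholipid flippase, was lower than in LMO1 (−4.46, adjusted p = 0.00827) and Pokemon tumours (−3.96, 0.028). *Gm6958* was lower than in Pokemon tumours (55.8, 96.3 and 35.1 against 884 and 1346; adjusted p = 0.011).

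*Erdr1*, whose signal can vary with the mouse strain, read 2244, 859 and 4379 in Ikaros tumours, 1890.5 to 3697 in LMO1 tumours and 27.0 to 470 in the other 8 (4.03 ± 0.63, adjusted p = 0.000197). It did not hold against LMO1 tumours (0.40 ± 0.75, adjusted p = 0.843). *Ifi204*, another gene that differs between strains, held at 501, 324 and 278 against 12.2 to 340 (2.58 ± 0.77, adjusted p = 0.0453), and not after quantile normalization (0.0776). The labels give no strain, so strain and background cannot be told apart.

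Set against the other 9 backgrounds, 587 genes held (6.66%; 4.28% higher and 2.38% lower). Of the 256 higher genes 151 also held there in the same direction, and of the 107 lower genes 71 did, with 0 in the opposite direction. Both comparisons use the same Ikaros tumours and the same fit. Agreement in direction is therefore partly built in and is no second test. Tumours 1 and 3 lay above all 44 other tumours for 30 of the higher genes and below all 44 for 15 of the lower ones. The share of all tested genes outside all 44 was not counted, so these counts cannot be set against it. Of all tested genes, held or not, 9.15% lay above the 11 comparison tumours and 3.79% below them. *Fos* differed from the other 9 backgrounds by 3.95 ± 0.48 (adjusted p = 2.86e-06), *Lgals7* by 3.87 ± 0.33 (1.99e-10), *Cd4* by −2.72 ± 0.70 (0.0124) and *Ikzf1* by 1.77 ± 0.57 (0.0487).

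The 2 Ikaros tumours behind these differences limit them. Far fewer genes held when tumour 1 or tumour 3 was left out. A held gene was then called both with tumour 2 beside the remaining tumour and with the remaining tumour alone. That single tumour is assumed to vary like the other groups. Of 61 called genes followed through the alternatives, 5 stayed called in each one that tested them: *Fos*, *Lgals7*, *Rab34*, *Fosb* and *Max*. The background as a random block was among these alternatives. *Lgals7* and *Fosb* were not tested with the filter of 6 arrays, so only *Fos*, *Rab34* and *Max* stayed called through all of them. *Ctnnd1* lost its call only with tumour 1 alone (adjusted p = 0.0683). *Cd4* lost its call with tumour 3 alone, with tumour 1 alone and with the random block (limma adjusted p = 0.169), under which 33 genes held. With tumours 1 and 3 under the random block, others lost their calls too. These include *Yap1* (0.0652), *Pdgfrb* (0.0652), *Jun* (0.282), *Zfp36* (0.222), *Hk2* (0.192), *Pmaip1* (0.198) and *Eif4e3* (0.089).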

How the data were processed

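RNA of 47 tumours was hybridized to Affymetrix arrays. The authors deposited 1 MAS5 signal per probe set, a linear intensity, and the submitters' processing notes name MAS5; version, scaling target and build: not given in the sources used here. Trimmed means (2% from each end) of 250.063 to 250.129 show that arrays were scaled before deposit. The number of arrays limits the precision.

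Of 22690 probe sets, 64 are controls, 20380 carry 1 gene symbol in the platform table (only these were used), 691 several and 1555 none. Probe sets above the median of their array in at least 2 arrays passed the filter, and the one of highest mean stood for its gene (8810 of 12393 genes). Values were log2(signal + 15.9), 15.9 being the 25th percentile.

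Fits used limma 3.58.1 (lmFit, eBayes with trend) in R 4.3.3 over 47 tumours, 1 mean per background, and again without Ikaros tumour 2. Named genes were a fixed set of T-cell genes, the 12 largest held differences in each direction outside the range of the 11 tumours, 2 per background, up to 4 per list and 12 for tumour 2; others are said to be chosen after their values were seen or come from a list. The members, lists and rules were chosen with earlier results of these data known. Title numbers were not used to pair tumours in the main fits. Alternatives were pseudocounts, quantile normalization, filters, probe set choice, eBayes without trend, array weights, a replicate block, the 14 tumours alone, a random block, leaving out backgrounds or tumours and, added after seeing the data, median centring. The p53 gene is not analysed here.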

Additional observations from a re-analysis of the deposited data

How the results depend on the processing

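With a tumour left out, held genes ranged from 29 to 389, genes called with tumours 1 and 3 from 33 to 428, and genes called with all 3 tumours from 402 to 1550; in each of these 3, the low value was without an Ikaros tumour. Held counts ranged from 44 to 388 against ThPOK, 25 to 227 against LMO1, 22 to 226 against tumours labelled Nup98HoxD13, 31 to 250 against Pokemon and 104 to 583 against the other 9 backgrounds. Quantile normalization gave 231 called with tumours 1 and 3 and 202 held (158 shared), with 114 held against LMO1, 157 against labelled Nup98HoxD13, 108 against Pokemon and 315 against the other 9. Array weights gave 2200 called, 2162 held, and 1975, 1846, 943, 2057 and 2614 held against ThPOK, LMO1, labelled Nup98HoxD13, Pokemon and the other 9. The 14 tumours alone with 1 mean per background gave 847 called, 713 held, and 631, 483, 552 and 478 against the 4 backgrounds in that order. With the 11 as 1 group 197 were called and 188 held. With the background as a random block (correlation 0.236 with all 3 tumours, 0.334 without tumour 2) 99 were called with all 3, 37 with tumours 1 and 3, and 33 held (30 shared). The contrast without Pokemon gave 267 called and 244 held (within 1.5 times), and median centring, added after seeing the data, 147 against labelled Nup98HoxD13. The cause of these moves was not tested. *Rpl22* reversed to 0.49 with the probe set of largest interquartile range. The title number as a replicate block gave 310 held (284 shared). Deviations of same-numbered tumours from their background means correlated at −0.03 to 0.17. With so few tumours per background, these values do not settle whether the numbers pair tumours.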

Other observations

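Among the 12 genes with the largest gap between tumour 2 and the higher of tumours 1 and 3 were *Mup5* (17.1, 8592 and 39.9 in tumours 1 to 3), *Klk1b5* (18.3, 8332 and 67.2), *Klk1b21* (41.2, 8435 and 84.2) and *Klk1b11* (46.6, 11387 and 149). *Lpo*, a secreted peroxidase, read 8.08, 3598 and 35.4, *Pigr*, the receptor that carries IgA through epithelia, 15.3, 3285 and 41.3, and *Bhlha15*, a transcription factor of secretory cells, 9.99, 1306 and 7.32. Of the 256 genes that held higher, 9 were over 8-fold higher in tumour 2 than in both other tumours, 79 were highest in tumour 2 and 132 were lowest there.

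Hepatocyte markers summed to 4275 in tumour 1, 749 in tumour 2 and 221 in tumour 3, against 77.6 to 783 in the 11 tumours, over 3 tested genes, of which 0 held (2.91% of all genes held higher and 1.21% lower). B and plasma cell markers summed to 3553, 11574 and 4262 against 478 to 10770, and 0 of 13 held, counts too small to set against those shares.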
